A study of Mus musculus with 5 samples.

Results

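Elastic fibres give the aorta its recoil, and 8 genes for their core, scaffold, assembly and cross-linking were followed, cell by cell, through RNA libraries made from the aortic arch of mice. The genes were Eln, Fbn1, Fbln5, Mfap4, Mfap5, Lox, Loxl1 and Emilin1. They were chosen by name for what their proteins do, but with earlier results of these data known. All 8 were among the 16498 genes of the deposited expression table. That table held 18260 cells from 5 libraries, 2 of genotype Oasl1+/+Apoe-/- (named Apoe-/- here) and 3 labelled Oasl1-/-Apoe-/-. Both groups lacked Apoe, which makes mice prone to atherosclerosis, and both were fed normal chow for 28 weeks. The second group was labelled as also carrying a germline deletion in Oasl1, an interferon-induced gene, so the deletion was not limited to any cell type. The labels give 6 pooled mice and live cells sorted by a DNA dye before droplet capture. Nothing states that the libraries of a group came from separate pools of mice, so the p-values below measure the spread between libraries, which may be technical.

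Elastic fibres are laid down mainly in development and turn over slowly in the adult artery. Cells secrete tropoelastin, the product of Eln, which coacervates and is placed on a scaffold of fibrillin microfibrils. Lysyl oxidases then cross-link it into insoluble elastin, and fibulin-5 brings tropoelastin and the cross-linking enzymes to the scaffold. In the aortic media, smooth muscle cells and elastic lamellae alternate in layers, and endothelial cells and adventitial fibroblasts also make fibre components. In atherosclerosis, smooth muscle cells can lose contractile markers and gain matrix and inflammatory genes, a state often called modulated.

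Cells of 4 kinds were compared, each grouped by clustering that left out the 8 genes and the related lists described further on. Smooth muscle cells (9660 cells in 5 clusters) carried Myh11 at a mean of 28.2 and Acta2 at 271 unique molecular identifiers (UMIs) per 10000 UMIs of a cell (CP10K, the unit of level used throughout). Their cluster c14 (199 cells) did not meet the naming rule on Myh11 or Acta2 and was named from other smooth muscle markers. Modulated smooth muscle-like cells (1238 cells in 1 cluster, c3) carried Tnfrsf11b at 2.29 CP10K, Lum at 41.5 CP10K and Vcam1 at 14.7 CP10K, and Myh11 at 7.06 CP10K. Timp1 was the other listed marker of this type to pass the naming rule, while Spp1, Ibsp, Cytl1 and Fmod did not pass it. Lum is also a fibroblast marker, and Pdgfra, which defines fibroblasts, stood at 0.335 CP10K there. Fibroblasts (415 cells in 1 cluster, c11) carried Dpt at 9.98 CP10K and Pdgfra at 1.39 CP10K. Endothelial cells (1500 cells in 2 clusters, c6 and c13) carried Pecam1 at 23.5 CP10K and Cdh5 at 3.91 CP10K. A cartilage-like cluster had 151 cells, of which 8 and 10 were in the Apoe-/- libraries, and was not tested.

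The libraries held 3212 to 4338 cells and 16959976 to 19813039 UMIs each, with a median of 4495 to 5186.5 UMIs per cell. With UMIs summed over cells, libraries of a group differed by more than the counting noise of UMIs (chi-square per degree of freedom 3.59 to 8.70 over genes). That value treats each UMI as independent, so it also holds the spread from which cells were drawn. There were 165 cell barcodes that occurred in 2 or more libraries. Oasl1 UMIs numbered 299, 257 and 315 in the libraries labelled Oasl1-/-Apoe-/-, against 27 and 16 for Apoe-/-. The deletion removes the promoter and exon 2 while these reads come from the 3′ end of a transcript, so the count does not read the deleted part. Why it was higher under the label was not tested. Since the count is higher under the label, the second group is named by its label throughout. Smooth muscle cells made up 63.8% and 66.3% of cells in the Apoe-/- libraries and 42.2% to 42.8% under the label, and macrophages 6.98% and 7.21% against 17.3% to 19.1%.

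Eln lies on the minus strand of chromosome 5 at 134702593 to 134747323, Fbn1 on the minus strand of chromosome 2 at 125300594 to 125507993, and Fbln5 on the minus strand of chromosome 12 at 101746565 to 101819055 (build GRCm38). Fbn1 and Fbln5 were the members that fell together with Eln in fibroblasts, and their proximal promoters are shown for that reason. Both are the 250 bases upstream of the RefSeq start (GRCm38.p6), written 5′ to 3′ on the gene's strand, with matches to the GC box (GGGCGG, either strand) in capitals.
Fbn1, chr2:125506439-125506688, minus strand: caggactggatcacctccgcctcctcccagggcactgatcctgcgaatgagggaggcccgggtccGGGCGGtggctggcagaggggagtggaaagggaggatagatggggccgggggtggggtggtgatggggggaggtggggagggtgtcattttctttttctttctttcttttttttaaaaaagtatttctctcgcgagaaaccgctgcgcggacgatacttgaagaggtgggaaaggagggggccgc
Fbln5, chr12:101819120-101819369, minus strand: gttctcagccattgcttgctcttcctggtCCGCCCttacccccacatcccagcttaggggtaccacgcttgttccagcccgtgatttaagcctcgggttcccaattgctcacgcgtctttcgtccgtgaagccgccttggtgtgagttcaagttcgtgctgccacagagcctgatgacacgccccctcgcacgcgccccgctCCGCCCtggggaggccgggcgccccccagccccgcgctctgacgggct
Fbn1 had 1 GC box and Fbln5 had 2, and 32.7% of 32851 promoter windows of the same length held at least 1. RefSeq gives Fbln5 another start, and the window before it (chr12:101818485-101818734, minus strand) had no GC box. A CArG box, the motif named for serum response factor, was found in none of these windows and in 1.47% of all windows. These matches describe the letters and not binding.

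Eln was transcribed in every stromal and endothelial type and was close to absent from leukocytes. Over the 5 libraries its level ran from 26.3 to 50.5 CP10K in modulated cells, from 19.0 to 23.6 in endothelial cells, from 12.5 to 18.4 in smooth muscle cells and from 2.89 to 9.95 in fibroblasts. The ranges of modulated, endothelial, smooth muscle and fibroblast cells followed in that order without overlap between neighbours. In the 6 leukocyte types, which should lack elastin, the mean of the libraries was 0.167 to 0.653 CP10K. The highest value of a single library was 1.91 CP10K, in monocytes. Whether free RNA in the droplets gave these levels was not tested.

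The other members were spread differently. Fbn1, the scaffold fibrillin, ran from 2.02 to 2.71 CP10K in modulated cells, from 1.37 to 3.44 in fibroblasts, from 0.919 to 0.9997 in smooth muscle cells and from 0.231 to 0.398 in endothelial cells, and its first pair of types overlapped. Fbln5 ran from 7.87 to 11.8 CP10K in modulated cells, from 8.65 to 10.7 in endothelial cells, from 4.16 to 7.22 in fibroblasts and from 4.21 to 5.04 in smooth muscle cells, and the first 2 types overlapped, as did the last 2. Mfap5, a small glycoprotein bound to fibrillin, was at 11.1 to 21.9 CP10K in fibroblasts and at 2.65 to 3.81 in the other types. Mfap4, another microfibril glycoprotein, was at 7.01 to 10.0 CP10K in fibroblasts, 5.21 to 6.15 in smooth muscle cells and 2.68 to 3.85 in modulated cells, while endothelial cells had 0.025 to 0.207, with leukocyte means of 0.0588 to 0.285.

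Of the cross-linking enzymes, Lox was highest in modulated cells at 2.52 to 4.18 CP10K, followed by endothelial cells at 1.504 to 1.92, and smooth muscle cells (0.896 to 1.02) and fibroblasts (0.56 to 1.31) overlapped. Loxl1, which acts on elastin with fibulin-5, was highest in fibroblasts at 3.79 to 5.59 CP10K and ran from 2.60 to 3.13 in modulated cells and from 2.09 to 2.43 in smooth muscle cells. Endothelial cells had 0.105 to 0.163 CP10K of Loxl1, where the highest leukocyte mean was 0.107. Emilin1, found at the border of elastin and microfibrils, was at 1.86 to 1.9997 CP10K in modulated cells and at 0.874 to 1.36 in the other types, which overlapped. The clusters were made from these same cells, so the order of types was not tested.

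**Figure D1:**
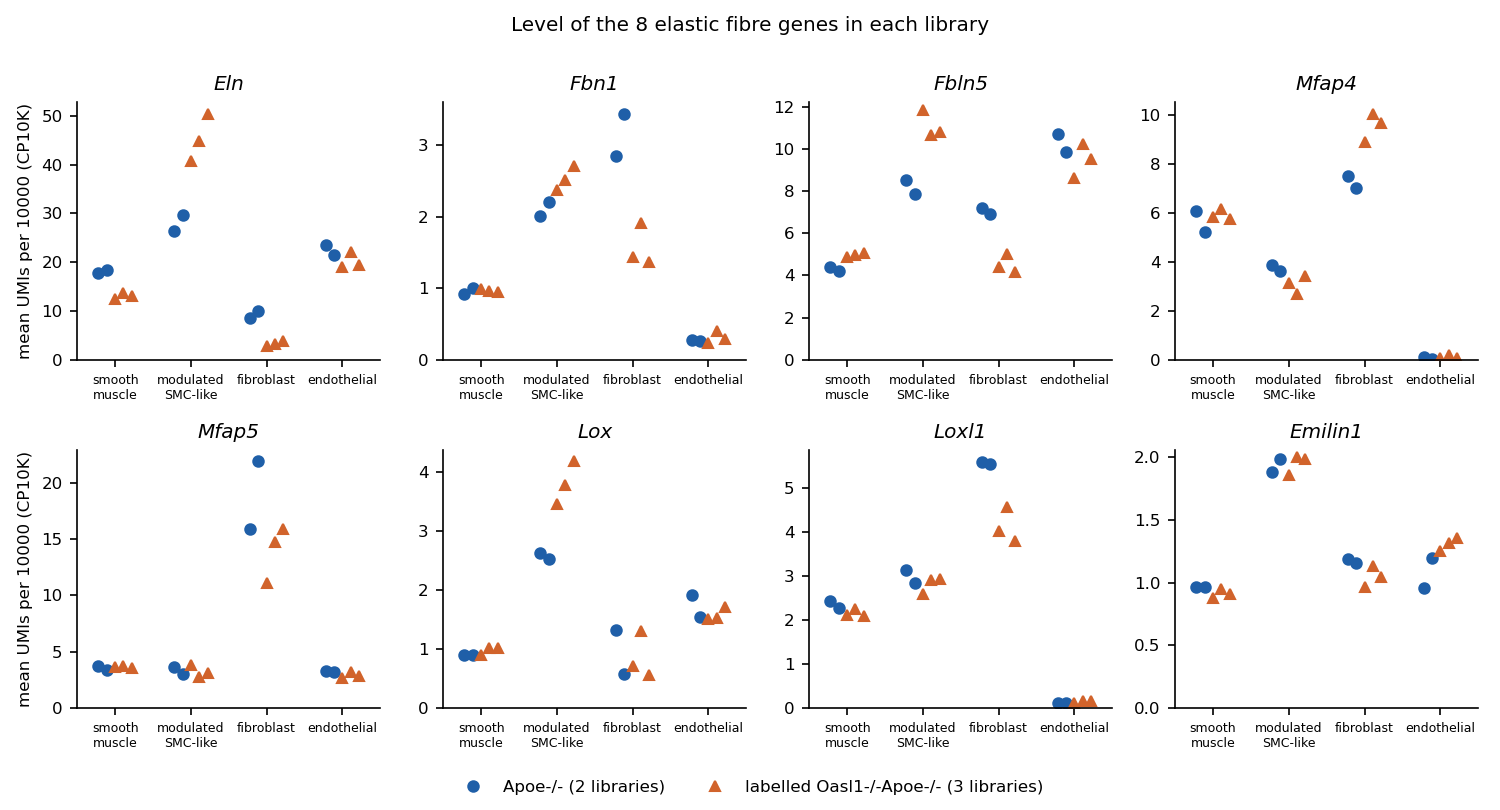
Mean level (UMIs per 10000, linear axes from 0) of each of the 8 genes in 4 cell types, with 1 point per library: circles for the 2 Apoe-/- libraries and triangles for the 3 labelled Oasl1-/-Apoe-/-. Eln triangles lie below the circles in smooth muscle cells (12.5 to 13.7 against 17.9 and 18.4) and fibroblasts (2.89 to 3.87 against 8.62 and 9.95) and above them in modulated cells (40.7 to 50.5 against 26.3 and 29.8).

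Across the 11 named cell types, Eln, Fbln5 and Lox had the most similar profiles among the members. Pearson's r of the mean log2 level was 0.97 for Eln with Fbln5, 0.97 for Eln with Lox, 0.98 for Fbln5 with Lox and 0.97 for Lox with Emilin1. Mfap4 had the lowest values, with r of 0.51 with Emilin1 and 0.56 with Lox. Outside the members, the genes most like Eln were Grik5, Synpo and Pde3a (r = 0.98 each), those most like Fbn1 were Gpx8, Mmp11 and Aebp1 (0.99 each) and those most like Fbln5 were Cttn, Ghr and Olfml2a (0.99 each). For Lox they included Sardh and Clu (0.99 each), and they were for Mfap5 Tgfbr3, Rab23 and Bicd1 (0.99 each) and for Emilin1 Mras, P3h3 and Dsel (0.99 each). Mfap4 was closest to Gabra3, Osr1 (both 0.99) and Heyl (0.98), and Loxl1 to Adamtsl3 (0.99), Olfml2b and Thbs3 (both 0.98). These are descriptions over 11 points that share libraries and split mainly into stromal cells and leukocytes.

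The effect of the label was asked within each cell type, with each library as 1 replicate. Eln fell in the smooth muscle clusters and in fibroblasts, rose in the modulated smooth muscle-like cluster and did not pass the test in endothelial cells. The smooth muscle and modulated calls were lost under a gate on single cells, described further on. In endothelial cluster c13 alone Eln was lower, in a fit added after the data had been seen. The text gives for each type the levels in Apoe-/- replicates 1 and 2 and then in the replicates 1, 2 and 3 labelled Oasl1-/-Apoe-/-, followed by the log2 difference (labelled minus Apoe-/-, on log2(CP10K + 0.05)) from limma with its standard error. Adjusted p is by Benjamini-Hochberg over all genes tested in the type, with 0.05 as the threshold.

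In smooth muscle cells, Eln was 17.9 and 18.4 CP10K in the Apoe-/- libraries and 12.5, 13.7 and 13.1 CP10K in those labelled Oasl1-/-Apoe-/-. Every library under the label lay below both Apoe-/- libraries. The group means were 18.1 ± 0.398 (SD, n = 2) and 13.1 ± 0.589 (SD, n = 3), 1.38-fold lower under the label, with a log2 difference of -0.47 ± 0.05 (SE, adjusted p = 2.27e-06). Fbln5 moved the other way, from 4.38 and 4.21 to 4.88, 4.98 and 5.04 CP10K, a log2 difference of 0.21 ± 0.05 (adjusted p = 0.0123). That rise was 1.16-fold. The call was lost in 11 of 24 alternatives, among them the fits of the 5 single clusters given further on and those without replicate 2 (adjusted p = 0.0824) or replicate 3 (adjusted p = 0.0969) labelled Oasl1-/-Apoe-/-.

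These 2 of 8 members compare with 6.41% of all genes tested in smooth muscle cells. The levels of the 2 groups did not overlap for 4 of the 8, against 36.9% of all genes. The remaining 6 had log2 differences between -0.13 (Loxl1, adjusted p = 0.196) and 0.11 (Lox, adjusted p = 0.376), and the 95% interval for Fbn1 ran from -0.12 to 0.14. The median difference over the 8 was 0.02, beside 0.01 over all genes.

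Eln was lower in the median smooth muscle cell and in the cells with most Eln. The median cell had 15.05 and 15.1 CP10K in the Apoe-/- libraries and 9.83, 10.3 and 9.71 CP10K in the others, and the 90th percentile was 33.9 and 33.8 against 25.0, 26.1 and 25.6 CP10K. Cells with at least 1 Eln UMI made up 97.4% and 97.2% in Apoe-/- (95% Wilson intervals 96.7 to 97.9 and 96.6 to 97.8) and 93.2%, 93.8% and 93.9% under the label (91.8 to 94.4, 92.4 to 94.97 and 92.5 to 95.03). In T and NK cells, which should lack Eln, that share was 1.03% to 7.74% at a median of 1759 UMIs, against 4878 UMIs in smooth muscle cells. With each cell thinned to 1000 UMIs the smooth muscle shares were 73.7% and 74.2% against 63.8%, 64.4% and 62.1%, with 8 to 21 shallower cells left out per library. Permuting the labels of the 5 libraries in every way (exact, two-sided permutation test) gave p = 0.1, the smallest this design allows (adjusted p = 0.356 over 32 such shares). Wilson intervals cover counting error only.

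Each of the 5 smooth muscle clusters showed the lower Eln. In c0, the most numerous, it was 17.4 and 17.3 against 12.3, 12.7 and 11.6 CP10K, and in c1 it was 16.4 and 16.3 against 10.1, 11.5 and 11.2 CP10K. Cluster c2, marked by Flnc and Nov, had 21.5 and 24.3 against 15.9, 17.5 and 17.4 CP10K, and c10 had 16.2 and 15.8 against 12.2, 11.9 and 10.8 CP10K. The log2 differences were -0.51 in c0, -0.58 in c1, -0.43 in c2 and -0.47 in c10, each past the threshold, as were 3.63%, 3.06%, 2.45% and 0.281% of all genes in these clusters. In c14, marked by Adamtsl1 and Osr1, Eln was 20.6 and 26.6 against 15.4, 18.3 and 15.6 CP10K, a log2 difference of -0.51 that was not past the threshold (adjusted p = 0.36), where 0.117% of genes were. That cluster was named from Cnn1, Myl9, Smtn, Actg2 and Lmod1, without Myh11, Acta2 or Tagln. No smooth muscle marker was among its 10 leading genes. The fits of single clusters were added after the data had been seen.

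The call depended on where smooth muscle cells ended and modulated cells began. Under a gate on single cells (at least 2 smooth muscle markers and fewer of every other type), Eln was 18.3 and 19.0 against 17.0, 18.6 and 19.1 CP10K, a log2 difference of -0.04 (adjusted p = 0.732). That gate took in 130, 111, 187, 189 and 176 cells of the modulated cluster, whose mean Eln was 31.0 and 36.6 against 54.2, 54.3 and 64.8 CP10K. The gated cells inside the smooth muscle clusters still had 17.9 and 18.4 against 12.5, 13.7 and 13.1 CP10K. With finer clusters (resolution 2) the log2 difference was -0.24 (adjusted p = 0.00171).

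**Figure D2:**
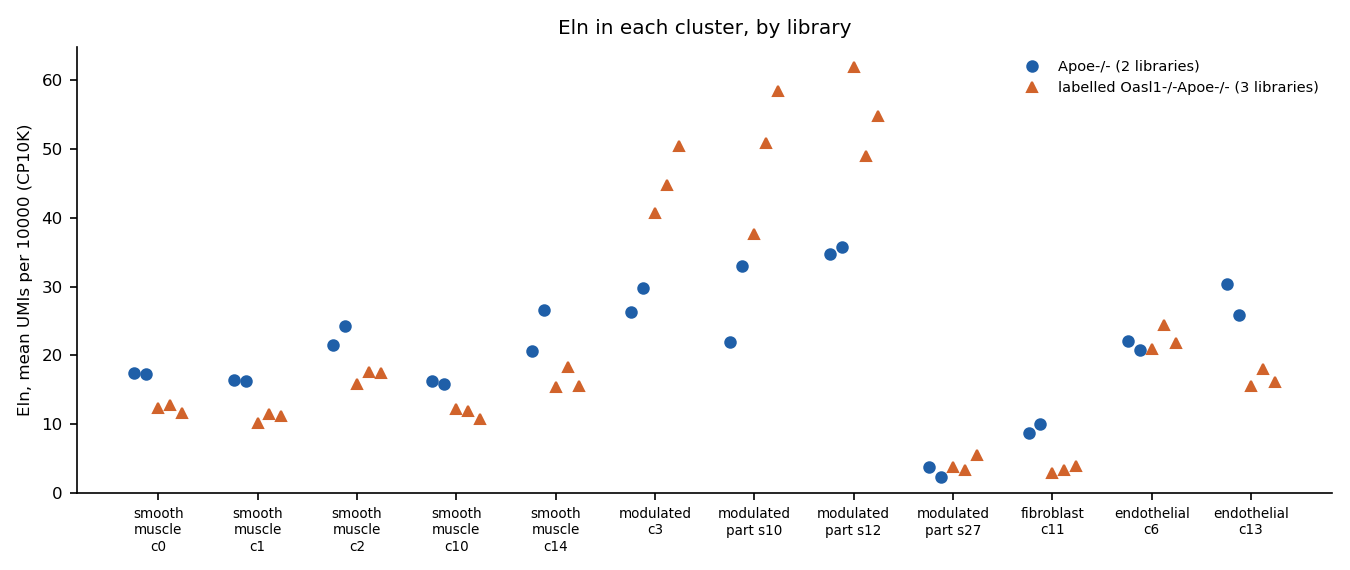
Mean Eln level (UMIs per 10000, linear axis from 0) in each stromal and endothelial cluster and in the 3 parts of modulated cluster c3, with 1 point per library (circles Apoe-/-, triangles labelled Oasl1-/-Apoe-/-). Triangles lie below circles in the 5 smooth muscle clusters, in fibroblasts and in endothelial cluster c13, above them in modulated cells except for part s27, and among them in endothelial cluster c6.

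In modulated smooth muscle-like cells, Eln was 26.3 and 29.8 CP10K in the Apoe-/- libraries and 40.7, 44.8 and 50.5 CP10K in those labelled Oasl1-/-Apoe-/-. The groups were well apart, with means of 28.0 ± 2.43 (SD, n = 2) and 45.3 ± 4.90 (SD, n = 3). The log2 difference was 0.69 ± 0.08 (adjusted p = 4.54e-05), a 1.62-fold higher level.

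Fbln5 and Lox, for assembly and cross-linking, rose as well. Fbln5 was 8.52 and 7.87 CP10K against 11.8, 10.7 and 10.8 CP10K, a log2 difference of 0.44 ± 0.07 (adjusted p = 0.0014). Lox, lysyl oxidase, was 2.62 and 2.52 CP10K against 3.45, 3.78 and 4.18 CP10K, a log2 difference of 0.55 ± 0.09 (adjusted p = 0.00108). In both genes all 3 libraries under the label exceeded both Apoe-/- libraries.

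Thus 3 of 8 members rose and none fell in modulated cells, where 5.57% of all genes tested were called. The groups did not overlap for 5 of the 8, against 35.2% of all genes. Fbn1 had 2.02 and 2.20 against 2.38, 2.51 and 2.71 CP10K (log2 difference 0.26, adjusted p = 0.131), and Mfap4 had 3.85 and 3.63 against 3.13, 2.68 and 3.42 CP10K (log2 difference -0.28, adjusted p = 0.116). Mfap5, Loxl1 and Emilin1 had log2 differences of -0.03, -0.09 and 0.01, with 95% intervals of -0.28 to 0.21, -0.28 to 0.10 and -0.19 to 0.21. The median over the members was 0.13, beside 0.02 over all genes.

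In modulated cells the groups were apart in the cells with most Eln and overlapped at the median. The median modulated cell had 12.01 and 11.2 CP10K in Apoe-/- and 8.52, 11.97 and 11.2 CP10K under the label. The 90th percentile was 72.7 and 70.4 against 119, 147 and 168 CP10K. Cells above 100 CP10K, a limit chosen after the values were seen, numbered 8 of 178 and 13 of 157 in Apoe-/- (4.49% and 8.28%, 95% Wilson intervals 2.29 to 8.62 and 4.90 to 13.7). Under the label they numbered 39 of 310, 38 of 297 and 46 of 296 (12.6%, 12.8% and 15.5%, intervals 9.34 to 16.7, 9.47 to 17.1 and 11.9 to 20.1). The exact two-sided permutation test over libraries gave p = 0.1. Averaged over cells as deposited log values, so that high cells weigh less, Eln was 2.43 and 2.39 against 2.28, 2.51 and 2.57, and the difference was not past the threshold (adjusted p = 0.764).

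**Figure D3:**
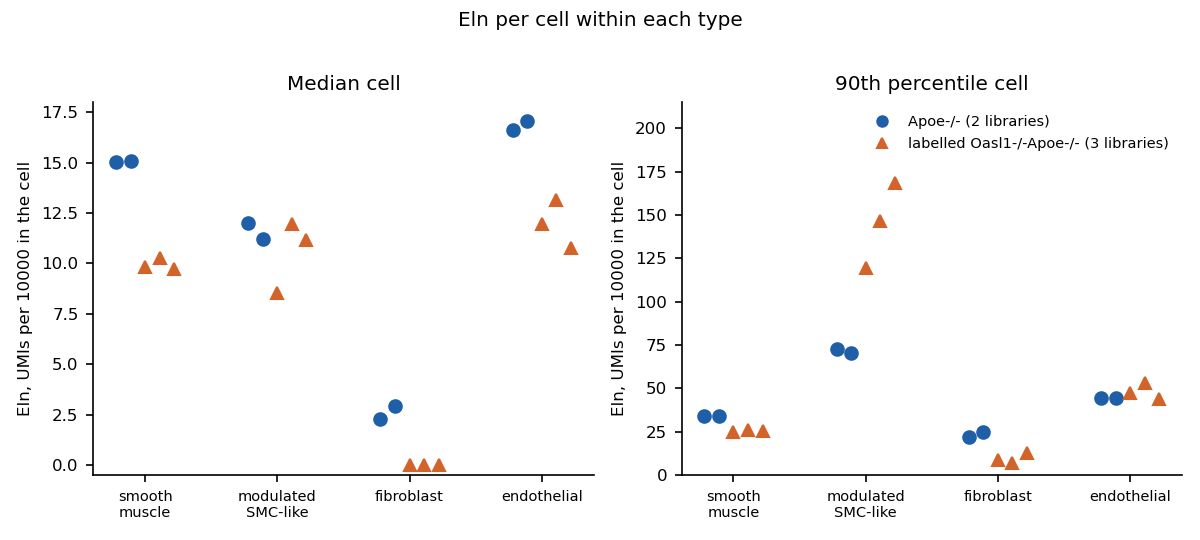
Eln in the median cell (left) and in the cell at the 90th percentile (right) of each type, in UMIs per 10000 of that cell on linear axes, with 1 point per library (circles Apoe-/-, triangles labelled Oasl1-/-Apoe-/-). In modulated cells the medians overlap (8.52 to 12.01) while the 90th percentile is 70.4 and 72.7 in Apoe-/- and 119 to 168 under the label, whereas smooth muscle cells differ at both.

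Finer clustering divided the modulated cluster into 3 parts. Part s12 had Sost and the smooth muscle markers Cnn1 and Myh11 among its leading genes and no modulated marker, so it is given no cell type name. Of the whole modulated cluster, 130, 111, 187, 189 and 176 cells passed the single-cell gate for smooth muscle cells and 32, 29, 71, 72 and 59 that for modulated cells. Part s12 had Eln at 34.7 and 35.8 against 61.9, 49.0 and 54.8 CP10K, a log2 difference of 0.64 (adjusted p = 8.87e-08), where 0.982% of genes were called. Its Fbln5 was 9.57 and 7.47 against 12.8, 10.2 and 10.5 CP10K (log2 difference 0.39, adjusted p = 0.0491). Part s10, led by Slurp1, Cytl1, Cthrc1 and Spp1, had Eln at 21.95 and 32.9 against 37.6, 51.0 and 58.5 CP10K, which was not past the threshold (log2 difference 0.84, adjusted p = 0.0874), whereas Lox was, with 2.30 and 2.86 against 3.97, 4.48 and 5.03 CP10K (log2 difference 0.79, adjusted p = 0.0284, 1.05% of genes called). Part s27, led by Saa3 and Cxcl5 and with C3 and Lcn2, had little Eln, at 3.68 and 2.27 against 3.81, 3.31 and 5.44 CP10K.

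The mix of these parts differed between the groups. Part s10 made up 25.8% and 30.6% of modulated cells in Apoe-/- and 50%, 53.5% and 55.1% under the label, and s12 made up 57.9% and 54.1% against 34.5%, 34.7% and 31.8%. With the 3 parts given the same weight in every library, the Eln log2 difference was 0.74 (adjusted p = 0.000157), the Fbln5 difference 0.37 (adjusted p = 0.0181) and the Lox difference 0.54 (adjusted p = 0.00331). Both the fits of the parts and this weighting were added after the data had been seen. Summed smooth muscle markers in modulated cells were 235 and 223 CP10K in Apoe-/- and 161, 159 and 156 CP10K under the label, and the summed modulated markers were 118 and 105 against 160, 154 and 134 CP10K. Modulated cells of Apoe-/- replicate 2 also carried 41.8 CP10K of erythroid markers, against 0.397 to 1.74 CP10K in the other libraries. The part of these marker levels in the results was not tested. Under the single-cell gate, which left 45, 48, 113, 125 and 115 cells, none of the members was past the threshold, and Eln had a log2 difference of 0.43 (adjusted p = 0.203). With the lymphocyte level subtracted Eln kept a log2 difference of 0.70, again with no member past the threshold (adjusted p = 0.0809). The shares of all genes called under the gate and after the subtraction are not given, so these counts cannot be set against other genes.

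Fibroblasts had the lowest Eln of the 4 types, and it fell under the label. Its level was 8.62 and 9.95 CP10K in the Apoe-/- libraries and 2.89, 3.28 and 3.87 CP10K under the label, with no overlap. Group means were 9.29 ± 0.935 (SD, n = 2) and 3.35 ± 0.494 (SD, n = 3), 2.77-fold lower under the label, and the log2 difference was -1.46 ± 0.18 (adjusted p = 5.86e-08). Fbn1 fell with it, from 2.85 and 3.44 to 1.43, 1.91 and 1.37 CP10K (log2 difference -0.99 ± 0.23, adjusted p = 0.00626). Fbln5 fell from 7.22 and 6.93 to 4.41, 5.001 and 4.16 CP10K (log2 difference -0.64 ± 0.17, adjusted p = 0.0233). The Fbn1 call was lost in 5 of 18 alternatives, and the Fbln5 call in 9, among them the replicate block (adjusted p = 0.0614), centring per library (adjusted p = 0.0515), the single-cell gate (log2 difference -0.41, adjusted p = 0.43) and the fit without Apoe-/- replicate 1 (adjusted p = 0.125).

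Those 3 of 8 members stand beside 2.77% of all genes tested in fibroblasts. The groups did not overlap for 6 of the 8, against 28.2% of all genes, and the median difference was -0.44 beside 0.01. Loxl1 had 5.59 and 5.56 against 4.03, 4.58 and 3.79 CP10K and was not past the threshold (log2 difference -0.43, adjusted p = 0.259). Mfap4 was 7.48 and 7.01 against 8.89, 10.0 and 9.65 CP10K (log2 difference 0.39, adjusted p = 0.217), and Mfap5 was 15.9 and 21.9 against 11.1, 14.7 and 15.9 CP10K (log2 difference -0.44, adjusted p = 0.113). Lox and Emilin1 were measured too thinly to tell, with 125 and 162 UMIs in all and 95% intervals of -0.79 to 0.59 and -0.72 to 0.40.

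The fibroblast values rest on 63 and 63 cells in Apoe-/- and 87, 108 and 94 cells under the label, with 745 Eln UMIs in all. Eln was detected in 54.0% and 58.7% of fibroblasts in Apoe-/- (95% Wilson intervals 41.8 to 65.7 and 46.4 to 70.0) and in 37.9%, 35.2% and 40.4% under the label (28.5 to 48.4, 26.8 to 44.6 and 31.1 to 50.5), so the median cell of all 3 of these libraries had no Eln UMI. The median depth was 3261 UMIs. After thinning to 1000 UMIs the shares were 37.1% and 44.3% against 19.5%, 14% and 23.9%, with 1 to 8 cells left out per library, and the exact permutation p was 0.1 for both versions. Tested on the thinned counts, no member was past the threshold in fibroblasts, although Eln kept a log2 difference of -1.41 (adjusted p = 0.277). The share of all genes called on the thinned counts is not given, so this count cannot be set against other genes.

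Summed smooth muscle markers in fibroblasts were 38.2 and 30.2 CP10K in Apoe-/- and 28.4, 15.4 and 19.1 CP10K under the label. Monocyte markers ran the other way, at 2.09 and 2.14 against 7.79, 9.10 and 6.47 CP10K, and mesothelial markers were 3.18 and 0.335 against 5.63, 5.70 and 2.92 CP10K. The part of these cells or transcripts in the result was not tested. Leaving out replicate 1 or 3 labelled Oasl1-/-Apoe-/- left Eln as the 1 member past the threshold, and the share of all genes called there is not given.

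In endothelial cells no member passed the test, where 4.12% of all genes did. Eln was 23.6 and 21.5 CP10K against 19.0, 22.1 and 19.5 CP10K, overlapping, with a log2 difference of -0.16 and a 95% interval of -0.30 to -0.01 (adjusted p = 0.308). Fbln5 was 10.7 and 9.85 against 8.65, 10.2 and 9.56 CP10K (log2 difference -0.12, adjusted p = 0.611), and Lox was 1.92 and 1.54 against 1.504, 1.52 and 1.70 CP10K (log2 difference -0.12, adjusted p = 0.804). The groups did not overlap for 2 of 8 members, Mfap5 and Emilin1, against 28.3% of all genes.

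The endothelial cells lay in different clusters by group. Cluster c13 held 72 of 388 and 53 of 386 endothelial cells in Apoe-/- and 89 of 255, 90 of 250 and 87 of 221 under the label, and the rest were in c6. In c6, marked by Klk10 and Gkn3, Eln was 22.1 and 20.8 against 20.9, 24.4 and 21.8 CP10K, and no member was past the threshold, where 1.26% of genes were. In c13, marked by Plvap, Selp and Emcn, Eln was 30.4 and 25.9 against 15.5, 18.04 and 16.0 CP10K, a log2 difference of -0.77 ± 0.10 (adjusted p = 6.91e-05). Fbln5 was 17.7 and 15.7 against 11.7, 11.9 and 11.1 CP10K there, a log2 difference of -0.53 ± 0.10 (adjusted p = 0.00538). In c13 2.24% of all genes were called, and a difference between the 2 clusters was not tested. The fits of c6 and c13 alone were also added after the data had been seen.

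Lymphatic endothelial markers moved with the label as well. Their sum in endothelial cells was 0.191 and 0.292 CP10K in Apoe-/- and 10.8, 5.69 and 12.1 CP10K under the label, and cells with at least 2 such markers numbered 0 and 1 against 14, 9 and 9. Without those cells the Eln log2 difference over all endothelial cells was -0.11 (adjusted p = 0.628). Cluster c13 alone was not fitted without them. On the mean of the deposited log values, Eln was past the threshold in endothelial cells (log2-scale difference -0.43, adjusted p = 0.00478), and the median cell had 16.6 and 17.1 against 11.97, 13.1 and 10.7 CP10K.

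**Figure D4:**
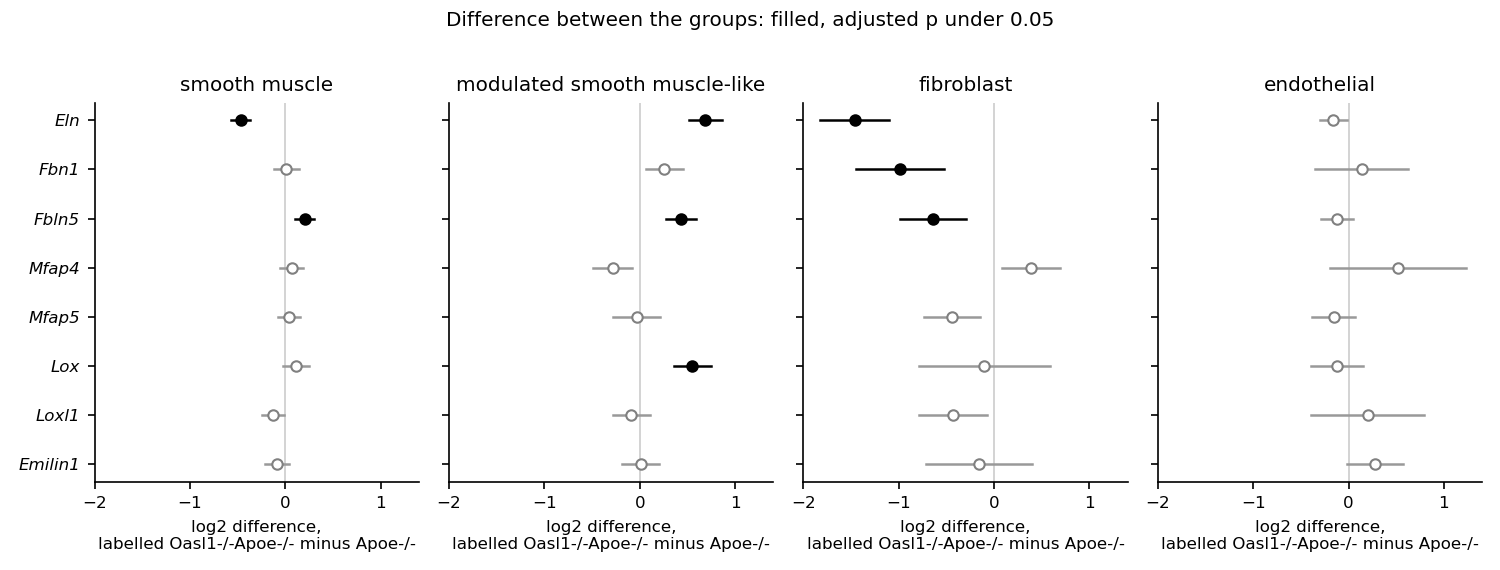
Difference between the groups (log2, labelled Oasl1-/-Apoe-/- minus Apoe-/-, limma on 2 against 3 libraries) for the 8 genes in 4 cell types. Points are estimates, bars are 95% intervals and filled points have an adjusted p under 0.05: Eln and Fbln5 in smooth muscle cells, Eln, Fbln5 and Lox in modulated cells, and Eln, Fbn1 and Fbln5 in fibroblasts.

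Whether the effect of the label differed between types was tested directly, on the difference of the log2 levels of 2 types within each library. In none of 6 pairs of types was a member past the threshold (limma, adjusted over all genes). In smooth muscle minus endothelial cells 0.0487% of all genes were called, and 0% in the other 5 pairs. At an unadjusted p under 0.05, members numbered 3 of 8 for smooth muscle minus fibroblast, 0 for smooth muscle minus endothelial, 2 for fibroblast minus endothelial, 2 for modulated minus smooth muscle, 3 for modulated minus fibroblast and 3 for modulated minus endothelial. The share of all genes at that unadjusted cut is not given, so these counts cannot be set against the shares above.

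The estimates are given with their 95% intervals. The Eln effect in modulated cells minus that in smooth muscle cells was 1.16 ± 0.13 (log2, SE, interval 0.84 to 1.47, adjusted p = 0.14). Modulated cells minus fibroblasts gave 2.15 ± 0.37 (1.27 to 3.04, adjusted p = 0.244), and modulated minus endothelial cells 0.85 ± 0.22 (0.33 to 1.36, adjusted p = 0.419). For smooth muscle cells minus fibroblasts Eln gave 0.997 ± 0.36 (0.14 to 1.85, adjusted p = 0.464), for smooth muscle minus endothelial cells -0.31 ± 0.15 (-0.66 to 0.05, adjusted p = 0.598) and for fibroblasts minus endothelial cells -1.31 ± 0.41 (-2.28 to -0.33, adjusted p = 0.483). Fbln5 gave 0.85 (0.17 to 1.53, adjusted p = 0.455) for smooth muscle cells minus fibroblasts, and Lox gave 0.44 (0.17 to 0.71, adjusted p = 0.234) for modulated minus smooth muscle cells.

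These calls depended on how the spread was modelled. The fit above let the spread vary with the mean difference. A fit in which it varied with the mean level of both types was added after no member had been called, and there Eln was past the threshold in all 6 pairs. Members called in that fit numbered 3 of 8 for smooth muscle minus fibroblast, 2 for smooth muscle minus endothelial, 1 for fibroblast minus endothelial, 3 for modulated minus smooth muscle, 4 for modulated minus fibroblast and 3 for modulated minus endothelial, where 1.61%, 2.2%, 1.24%, 3.81%, 1.92% and 1.46% of all genes were called. The 3 pairs with modulated cells were also added after the data had been seen.

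Other genes of the fibre were read from a list of 25, of which 24 were in the table. The shares of all genes called, in either direction, were 6.41% in smooth muscle cells, 5.57% in modulated cells, 2.77% in fibroblasts and 4.12% in endothelial cells, and the counts of this and the next lists stand beside those shares. In smooth muscle cells 1 of 17 tested rose and none fell, namely Vcan, the proteoglycan versican (1.09 ± 0.0596 against 1.51 ± 0.0279 CP10K, SD, adjusted p = 4.94e-05). Modulated cells had 3 of 21 higher and 2 lower. Fbln2, fibulin-2, went from 0.838 to 1.496 CP10K (adjusted p = 0.00049), Ltbp2, which binds fibrillin microfibrils, from 2.03 to 3.19 CP10K (adjusted p = 0.000496) and Loxl3, a lysyl oxidase relative, from 0.492 to 0.823 CP10K (adjusted p = 0.00412). Efemp1, fibulin-3, fell from 1.46 to 0.82 CP10K (adjusted p = 0.00245), and Ltbp4, which aids fibulin-5 in elastin assembly, from 2.60 to 2.06 CP10K (adjusted p = 0.0399). Fibroblasts had 1 of 23 higher and none lower, Fbln1, which binds elastic fibres, from 5.03 to 10.4 CP10K (adjusted p = 7.33e-06), against the fall of Fbln5 in the same cells. Endothelial cells had 1 of 20 higher and none lower, Ltbp2, from 0.25 to 0.463 CP10K (adjusted p = 0.045).

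Enzymes that cleave elastin and their inhibitors made a list of 18, with 15 in the table. Timp3, a matrix-bound inhibitor of metalloproteinases, fell in modulated cells from 17.5 to 14.1 CP10K (adjusted p = 0.0126), in fibroblasts from 20.3 to 10.5 CP10K (adjusted p = 1.54e-05) and in endothelial cells from 16.2 to 13.2 CP10K (adjusted p = 0.0276). Timp1, a soluble inhibitor and a marker of modulated cells, rose in the same types, from 15.02 to 24.2 CP10K (adjusted p = 4.98e-05), from 2.63 to 4.79 CP10K (adjusted p = 0.0043) and from 0.499 to 1.55 CP10K (adjusted p = 2.56e-07). In fibroblasts the inhibitors Serpine2 and Cst3 fell too, from 8.40 to 4.24 CP10K (adjusted p = 0.000262) and from 156 to 115 CP10K (adjusted p = 0.000617), whereas Serpine2 rose in endothelial cells from 0.23 to 0.533 CP10K (adjusted p = 0.000863). Mmp2, the gelatinase A that can also degrade elastin, rose in modulated cells from 1.92 to 2.92 CP10K (adjusted p = 0.00168), as did Cst6, a cystatin, from 0.0666 to 0.237 CP10K (adjusted p = 0.00862).

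Ctss, cathepsin S, which is mainly a leukocyte elastase, rose in smooth muscle cells from 0.092 to 0.204 CP10K (adjusted p = 1.14e-05), in modulated cells from 0.108 to 0.265 CP10K (adjusted p = 0.00862) and in endothelial cells from 0.466 to 0.752 CP10K (adjusted p = 0.0295). The summed macrophage markers in smooth muscle cells were 0.252 and 0.256 CP10K in Apoe-/- and 0.557, 0.662 and 0.607 CP10K under the label, and their part in the Ctss result was not tested. Of this list 1 of 11 tested genes was higher and none lower in smooth muscle cells, 4 of 12 higher and 1 lower in modulated cells, 1 of 12 higher and 3 lower in fibroblasts, and 3 of 11 higher and 1 lower in endothelial cells.

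Receptors for elastin and fibrillin were a list of 9, all tested in each type. In smooth muscle cells 3 rose, the integrin subunits Itga8 (11.5 to 13.01 CP10K, adjusted p = 0.0168), Itgb1 (7.003 to 7.96 CP10K, adjusted p = 0.0168) and Itgav (0.616 to 0.757 CP10K, adjusted p = 0.0224), and 1 fell, Itga5, part of the fibronectin receptor (1.42 to 1.15 CP10K, adjusted p = 0.00528). Modulated cells had 2 lower and none higher, Itgb5 (4.54 to 3.56 CP10K, adjusted p = 0.0186) and Itga8 (5.69 to 4.53 CP10K, adjusted p = 0.0285). None was past the threshold in fibroblasts or endothelial cells. A difference between types was not tested for the genes of these lists.

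In the cartilage-like cells, described without a test, Eln was 5.31 and 2.43 CP10K in Apoe-/- from 10 and 8 cells, and 14.2, 6.33 and 4.61 CP10K under the label from 39, 45 and 49 cells. Emilin1 ran from 1.98 to 3.82 CP10K there and Lox from 1.06 to 2.46 CP10K, while Mfap4 had 13 UMIs in all. The number of cells in the Apoe-/- libraries sets the limit on what these values can show.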

How the data were processed

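Single cells of pooled mouse aortic arches were sequenced by 10x Genomics 3′ chemistry. The submitters' processing notes name Cell Ranger 3.1.0 and Seurat 4.0.3, and the study's methods give mm10 and the removal of doublets and of cells with few genes or much mitochondrial RNA. No further doublet caller was run here. The authors deposited 1 table of natural log values, ln(1 + UMIs per 10000). Whole UMIs were recovered from it (100% of values within 0.01). Libraries were assigned by column prefix, and no column was left without a sample.

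Cells were clustered in Python 3.11.15 (2000 variable genes without the 8 genes and the lists, 12 components, 20 neighbours, Leiden resolution 1), giving 22 clusters. A cluster was named where at least 3 markers of 1 list were 2-fold higher than the mean of the other clusters and in 10% of cells. Clusters led by another list, or with few UMIs and none of their markers in front, stayed unnamed. Names rebuilt in this way can differ from those of the study. The level was the mean UMIs per 10000 of a type's cells in a library. limma 3.58.1 (trended variance, R 4.3.3) was fitted to log2(level + 0.05) for genes with a mean of at least 0.05, over all genes, in types with at least 20 cells per library, with 2 against 3 libraries. Differences of effects between types were fitted in the same way to within-library log2 differences, and a fit with the variance trend on the mean level of both types was added after that fit had called no member. Because of the added 0.05, the log2 differences understate those of low genes, while the fold changes are ratios of group means. Single shares were tested by exact permutation, whose smallest p is 0.1. The limma fit was tested on simulated data.

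The members and gene lists were chosen with earlier results of these data known. All 8 members are named. From each list, genes past the threshold are named, up to 5 per direction and type. For each member the 3 genes most like it by Pearson's r across the named types are given. Alternatives were the pseudocount, the filter, each library left out, a replicate block, summed UMIs, limma-voom, other cluster resolutions, centring per library, a single-cell gate, equal cluster shares, thinning and subtraction of the lymphocyte level. One gene among those most like Lox is not reported here.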

Additional observations from a re-analysis of the deposited data

Results flagged for a closer look

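In 8 cases the libraries of a member stood apart between the groups in opposite directions in 2 cell types. Within a single type, 28.2% to 36.9% of all genes stood apart between the groups. The share of all genes that did so in opposite directions in 2 types is not given. The cases were picked from the same values on which the difference was then tested. The difference of the log2 effects, first type minus second, was tested over all genes with limma, and none was past the threshold. For Eln it was 1.16 (modulated minus smooth muscle, adjusted p = 0.14) and 2.15 (modulated minus fibroblast, adjusted p = 0.244). For Fbln5 it was 0.85 (smooth muscle minus fibroblast, adjusted p = 0.455) and 1.08 (modulated minus fibroblast, adjusted p = 0.4496). For Fbn1 it was 1.25 and for Mfap4 -0.68 (both modulated minus fibroblast, adjusted p = 0.429 and 0.543). For Emilin1 it was -0.36 (smooth muscle minus endothelial, adjusted p = 0.558) and -0.44 (fibroblast minus endothelial, adjusted p = 0.756). In the fit with the spread on the mean level, added after the data had been seen, the Eln, Fbln5, Fbn1 and Mfap4 differences were past the threshold (the highest adjusted p was 0.0347, for Mfap4) and those of Emilin1 were not. Groups of 2 and 3 libraries were too small for a check of single libraries that stand apart.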

How the results depend on the processing

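Among the values of members past the threshold in the reported or an alternative fit, 0 of 213 recomputed values changed sign. Members past it in neither changed sign in 68 of 633. The counts of members called were 2 in smooth muscle cells, 3 in modulated cells, 3 in fibroblasts and 0 in endothelial cells. In smooth muscle cells the count was 1 with no filter, with cells thinned to 1000 UMIs, with the lymphocyte level subtracted, on the mean of the deposited log values and in c0, c1, c2 or c10 alone, and 0 in c14 alone. Under the single-cell gate the smooth muscle count stayed at 2, although Eln was not among the members called there (adjusted p = 0.732). At resolution 2 that count was 3, with Lox also past the threshold (adjusted p = 0.0232). In modulated cells the count was 6 with centring per library, 0 under the single-cell gate and with the lymphocyte level subtracted, 1 in part s10 and 0 in part s27. In fibroblasts it was 0 with thinned cells and 1 with the lymphocyte level subtracted. In endothelial cells it was 1 on the mean of the log values and 2 in c13 alone. With 1 library left out the counts ran from 1 to 3 in smooth muscle cells and from 1 to 3 in fibroblasts. Shares of all genes called were given above for the single clusters and for parts s10 and s12. For the other alternatives they are not given, so those counts say nothing about the members beside other genes. The cause of these changes was not tested. An arm left with 1 library was assumed to vary like the other.

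For differences of effects between types, the count was 0 in each of the 6 pairs, also without the filter, with the replicate block and with 1 library left out. With the spread modelled on the mean level the counts were 3 (smooth muscle minus fibroblast), 2 (smooth muscle minus endothelial), 1 (fibroblast minus endothelial), 3 (modulated minus smooth muscle), 4 (modulated minus fibroblast) and 3 (modulated minus endothelial). With a pseudocount of 0.5 they were 3, 0, 1, 2, 3 and 2, and the share of all genes called with that pseudocount is not given.

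The replicate numbers did not pair the samples: deviations of same-numbered libraries correlated at -0.02 to 0.02 over genes in each type. With the replicate block, in which replicate 3 labelled Oasl1-/-Apoe-/- has no partner, smooth muscle cells kept a count of 2, and the Fbln5 call in fibroblasts was lost (adjusted p = 0.0614).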
